A study of Homo sapiens with 6 samples.

Results

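The 9 genes described here encode tissue factor, its inhibitors, the plasminogen activators with their receptor, and 3 tissue inhibitors of metalloproteinases: TFPI2, TFPI, F3, PLAU, PLAUR, PLAT, TIMP1, TIMP2 and TIMP3. They were taken from a list of genes present in both deposited tables, 9 of 34957 genes. TFPI2 was chosen by its lower level after si-PLANE.1, so its values are a description and no test of them is given. A549, an established lung adenocarcinoma cell line, was transfected for 48 h with a control siRNA (si-ctrl) or with either of 2 siRNAs against the long non-coding RNA PLANE (si-PLANE.1 and si-PLANE.2). Each group had 2 RNA-seq libraries. All groups received an siRNA, so no untransfected cells were compared, and the labels do not say whether the libraries of a group came from separate cultures. The p-values then measure only the spread between these libraries, which may be technical. PLANE itself was not analysed here.

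Tissue factor (F3) is the cell-surface receptor for factor VII and starts the extrinsic coagulation cascade, and TFPI blocks it by Kunitz domains that bind factor Xa and the factor VIIa complex. PLAU (urokinase) and PLAT (tissue-type activator) cleave plasminogen to plasmin, which dissolves fibrin and degrades matrix, and PLAUR holds urokinase at the cell surface. TFPI2 is a secreted Kunitz inhibitor of plasmin and other serine proteases, and the TIMP proteins inhibit matrix metalloproteinases; carcinoma cells commonly make many of these proteins.

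The libraries held 10572151 to 20778431 estimated transcript counts. The si-PLANE.2 libraries stood apart. In 12 replication-dependent histone genes, whose mRNAs lack a poly(A) tail, the median FPKM (fragments per kilobase of transcript, scaled to library depth) lay between 68.5 and 167 for si-ctrl and si-PLANE.1, but was 0.145 and 0.25 for si-PLANE.2. The methods give 2 ways of enriching mRNA, by poly(A) capture or by depletion of rRNA, and do not say which library had which. Library type and the effect of si-PLANE.2 therefore cannot be told apart in any si-PLANE.2 value below. The labels number these libraries 3 and 4, against 1 and 2 in si-ctrl and si-PLANE.1, and no si-ctrl library is numbered 3 or 4. Any difference of run or culture cannot be told apart from si-PLANE.2 either. Of 12 epithelial and A549 markers, 11 were at 1 FPKM or more in every library, while the summed FPKM of the endothelial markers, 5 of 6 of them in the tables, was 0.05 to 1.06. Summed fibroblast markers ranged from 10.3 to 20.7 FPKM for si-ctrl and si-PLANE.1 and were lower for si-PLANE.2, at 3.83 and 4.58. Leukocyte markers summed to 4.59 to 10.4 FPKM, with CD14 as the largest part and CD3E at 0 in every library. The part of these markers in the results was not tested.

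In the si-ctrl libraries the levels of the 9 genes differed widely, as FPKM summed over each gene's transcripts. TFPI, TIMP1 and TFPI2 were the most abundant with means of 195, 158 and 131 FPKM. PLAUR (53.8) and TIMP2 (39.8) followed, then PLAU (11.3) and F3 (3.54), and TIMP3 (0.905) and PLAT (0.785) were lowest. TFPI lay above TIMP1 in both libraries, but the ranges of TIMP1 and TFPI2 overlapped, as did those of TIMP3 and PLAT. The plot of gene totals by library shows where the siRNA groups part from si-ctrl.

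**Figure D1:**
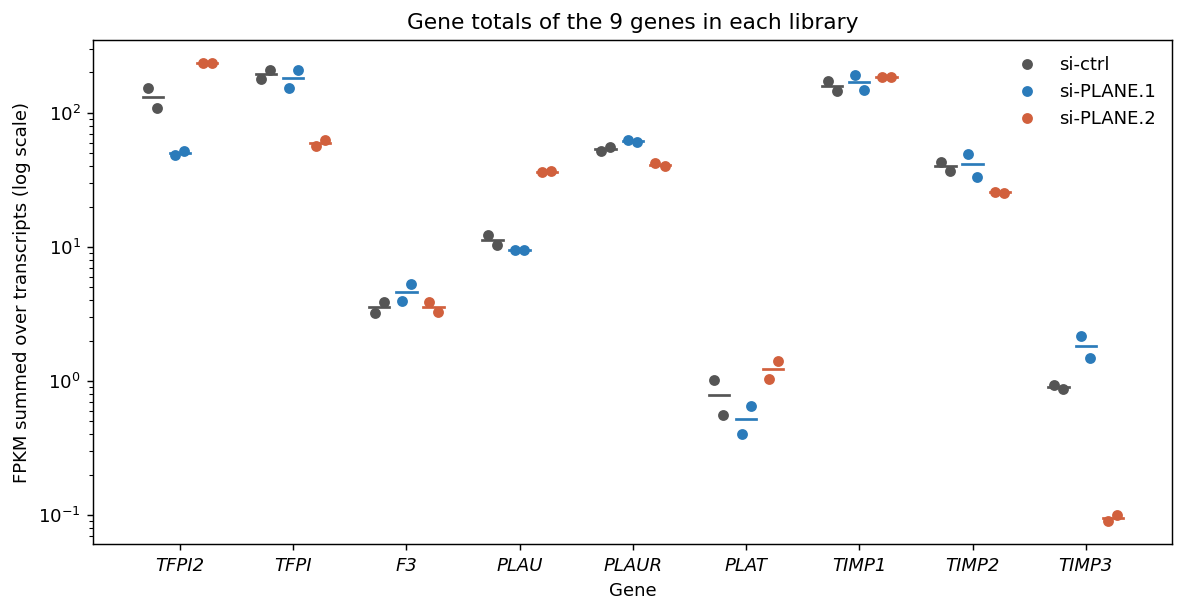
Gene totals of the 9 genes as FPKM on a log axis; each point is 1 library, each bar the mean of a group of 2. The si-PLANE.2 libraries lie outside the si-ctrl range for every gene except F3. The si-PLANE.1 libraries do so for TFPI2, F3, PLAU, PLAUR and TIMP3. Each range rests on 2 libraries.

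After si-PLANE.1, 0 of the 8 genes other than TFPI2 passed the test (edgeR's quasi-likelihood test on counts, adjusted p under 0.05 with Benjamini-Hochberg adjustment over all genes), against 0.0344% of the 14535 genes tested. 1 of the 8 had an unadjusted p under 0.05, against 1517 of the 14535 genes. DESeq2 also called 0 of the 8, with no adjusted p for 3 of them. In simulated data for this comparison the edgeR test called 51.5% of genes altered 2-fold, so a change of that size can be missed. The altered genes were taken above a minimum count that PLAT did not reach, so this share does not cover PLAT. After si-PLANE.2, 5 of the 8 passed, against 64.1% of 14168 genes. PLAU and TIMP1 rose (31.8% of all genes tested were called higher), and TFPI, TIMP2 and TIMP3 fell (32.3% were called lower). Of the calls over all genes, 49.7% were higher with counts, 37.1% with limma on log2(FPKM + 1) and 28.6% on log2(TPM + 1). The count of 5 of 8 is therefore near the share over all genes and is no result about these genes. In these bulk libraries, fewer cells with a transcript and less of it per cell cannot be told apart.

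**Figure D2:**
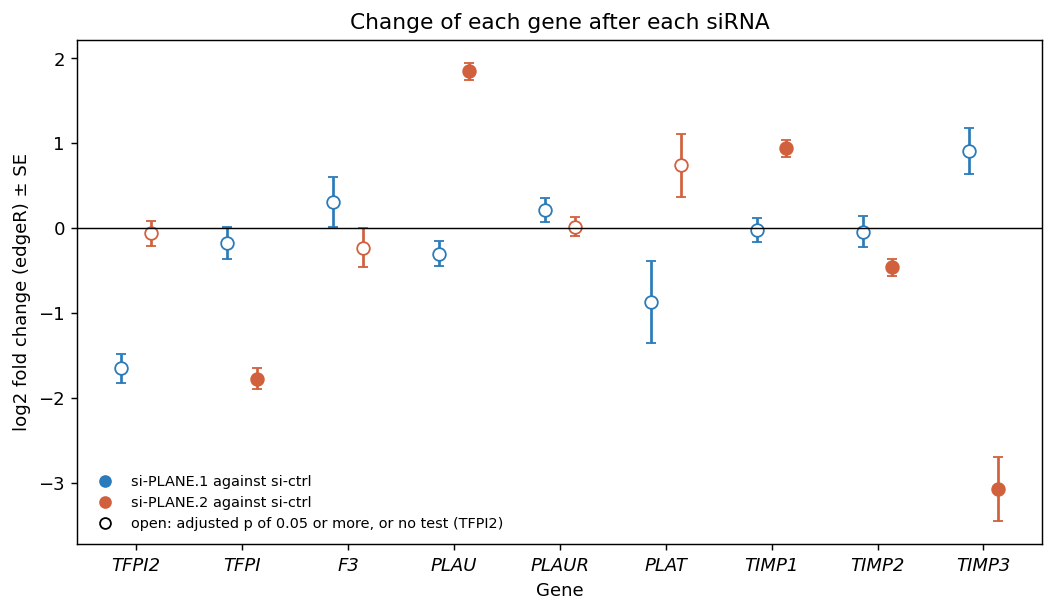
Log2 fold change (edgeR, counts) of each gene against si-ctrl with its SE, for the 2 siRNAs, 2 libraries per group. Filled points passed an adjusted p of 0.05 and open points did not or, for TFPI2, were not tested. TFPI2 was chosen for its si-PLANE.1 value, and its si-PLANE.2 value shares the si-ctrl libraries, so neither of its SE bars gives support. PLAU at 1.85 and TIMP3 at -3.07 after si-PLANE.2 are the farthest from 0 in each direction.

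TFPI2 (ENSG00000105825, chr7:93514708-93520065 on the minus strand, GRCh37) measured 154 and 109 FPKM in si-ctrl cells, 48.7 and 51.5 after si-PLANE.1, and 237 and 235 after si-PLANE.2. Both si-PLANE.1 libraries were below both si-ctrl libraries, with a log2 fold change of -1.65 ± 0.17 (SE) on counts. TFPI2 was chosen for this fall, so neither the separation nor the SE is evidence of an effect. The si-PLANE.2 comparison shares the si-ctrl libraries used in that choice, so its TFPI2 values and SEs are a description too. The si-PLANE.2 libraries were above si-ctrl on the FPKM scale, but their counts scaled to library depth by TMM (CPM), 237 and 203, fell within the range of si-ctrl, 259 and 192, and the log2 fold change on counts was -0.06 ± 0.15. On log2(FPKM + 1) the same difference was 0.86. The scales part because FPKM gives each read of a short transcript more weight.

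The short transcript is TFPI2-203 (ENST00000461482), annotated as a retained intron with no coding sequence, 565 bases long. Its estimated counts were 110 and 91.0 in si-ctrl, 44.98 and 44.79 after si-PLANE.1, and 1103 and 1058 after si-PLANE.2. It made up 16.7% and 18.7% of the TFPI2 FPKM sum in si-ctrl, 26.6% and 26.3% after si-PLANE.1, and 67.3% and 74.4% after si-PLANE.2, and 3.11% to 5.50% of the gene's counts in the first 4 libraries against 26.0% and 32.9% after si-PLANE.2. The coding transcript TFPI2-201 was at 111 and 81.0 FPKM with si-ctrl, 31.3 and 31.7 after si-PLANE.1, and 65.3 and 51.3 after si-PLANE.2. Its si-PLANE.1 and si-PLANE.2 libraries were below si-ctrl on this scale, with log2 fold changes on counts of -1.69 ± 0.19 and -0.43 ± 0.22. The si-PLANE.1 value of TFPI2-201 comes under the same choice of gene, and its si-PLANE.2 value shares the si-ctrl libraries of that choice. Summed over protein-coding transcripts only, a choice made after the data had been seen, TFPI2 gave -0.62 for si-PLANE.2.

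TFPI2-203 keeps the first 219 bases of the 913-base intron 2 (chr7:93519230-93519448, minus strand) after exon 2. This stretch is absent from TFPI2-201 and is printed with the last 30 bases of exon 2 first. TFPI2-203 has 2 exons against 5 in TFPI2-201, so it also lacks exons of that transcript. Capitals mark the first 2 bases of the intron and the first stop codon in the frame of TFPI2-201. That codon starts at base 54 of the intron. The reference is GRCh37, chr7:93519230-93519478, minus strand.
TFPI2 retained stretch: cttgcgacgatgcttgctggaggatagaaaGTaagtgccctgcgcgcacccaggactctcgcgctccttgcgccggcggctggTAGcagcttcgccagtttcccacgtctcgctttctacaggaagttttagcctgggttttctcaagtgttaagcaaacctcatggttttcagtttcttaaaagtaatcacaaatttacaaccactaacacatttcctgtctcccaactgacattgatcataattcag

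TFPI (ENSG00000003436, chr2:188328957-188430487, minus strand), the main inhibitor of tissue factor, was at 180 and 209 FPKM with si-ctrl, 153 and 209 after si-PLANE.1, and 56.9 and 62.8 after si-PLANE.2. The si-PLANE.2 libraries were below all others, and the si-PLANE.1 libraries overlapped si-ctrl. After si-PLANE.2 TFPI fell by 1.77 ± 0.12 on the log2 scale (adjusted p = 2.2e-05) and gave -0.17 ± 0.19 (adjusted p = 0.781) after si-PLANE.1.

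The fall was uneven over the isoforms of TFPI. TFPI-201 (ENST00000233156) was at 55.1 and 65.0 FPKM with si-ctrl, 48.1 and 63.4 after si-PLANE.1, and 8.39 and 4.03 after si-PLANE.2. TFPI-203 (ENST00000392365) was listed at 0 in every si-ctrl or si-PLANE.1 library and at 9.05 and 13.2 FPKM after si-PLANE.2, from 642 and 825 counts. A floor of 3 counts was set for each si-ctrl library. Against it, the estimated share of TFPI-203 in library counts was 140.6-fold higher in si-PLANE.2 replicate 3 and 205.2-fold in replicate 4. TFPI-203 reached the 0.5 FPKM minimum only through the si-PLANE.2 libraries. The 2 transcripts share 7 of 8 exons and the same coding segments, and differ in the first exon: 236 bases at chr2:188418927-188419162 for TFPI-201 and 26 bases at chr2:188378343-188378368 for TFPI-203. The listed 0 is an estimate, since assignment of reads between them rests on that exon, so the fold values above are no lower bound. ENST00000426055, which is not in the annotation used here, was the largest by FPKM in si-ctrl (90.0 and 109) and fell by 1.56 ± 0.16 after si-PLANE.2 (adjusted p = 0.0106), and TFPI-201 fell by 2.99 ± 0.42 (adjusted p = 0.0179). TFPI-210 measured 9.70 and 10.8 FPKM in si-ctrl and 8.01 and 9.44 after si-PLANE.2 (0.09 ± 0.35, adjusted p = 0.868).

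F3 (ENSG00000117525, chr1:94994729-95007315, minus strand) was expressed at a low level, 3.22 and 3.85 FPKM with si-ctrl, 3.92 and 5.25 after si-PLANE.1, and 3.89 and 3.28 after si-PLANE.2. Its log2 fold change was 0.31 ± 0.29 (adjusted p = 0.73) after si-PLANE.1 and -0.23 ± 0.23 (adjusted p = 0.41) after si-PLANE.2. The counts behind these values were 72 to 105 per library, which limits what could be seen.

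PLAU (ENSG00000122861, chr10:75668935-75677254, plus strand), urokinase, was at 12.3 and 10.3 FPKM with si-ctrl, 9.41 and 9.43 after si-PLANE.1, and 36.1 and 36.7 after si-PLANE.2. Both si-PLANE.2 libraries were above all others, and the si-PLANE.1 libraries were below si-ctrl by a margin that did not pass the test. PLAU rose after si-PLANE.2 by 1.85 ± 0.10 on the log2 scale (adjusted p = 1.13e-05), 3.6-fold, and gave -0.30 ± 0.15 (adjusted p = 0.554) after si-PLANE.1. The coding isoform PLAU-201 (ENST00000372764), at 83.6% to 100% of the PLAU FPKM in every library, rose after si-PLANE.2 by 1.86 ± 0.13 (adjusted p = 0.00717).

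PLAUR (ENSG00000011422, chr19:44150247-44174699, minus strand), the urokinase receptor, was at 52.2 and 55.4 FPKM with si-ctrl, 62.4 and 61.0 after si-PLANE.1, and 42.1 and 40.1 after si-PLANE.2. On FPKM the si-PLANE.2 libraries were below si-ctrl, while on TMM-scaled counts they lay within it (54.95 and 54.87 against 49.3 and 57.4 CPM). The test on counts gave 0.02 ± 0.11 (adjusted p = 0.883), but limma on log2(FPKM + 1) gave -0.38 (adjusted p = 0.0251) and on log2(TPM + 1), where TPM is FPKM rescaled to the same total in each library, -0.54 (adjusted p = 0.0107). The median of all genes moved too, by -0.224 on log2(FPKM + 1) and -0.368 on log2(TPM + 1), against -0.027 with counts. PLAUR gave 0.21 ± 0.14 (adjusted p = 0.633) after si-PLANE.1. Of its isoforms, PLAUR-203 (ENST00000340093) held 27.1 and 35.2 FPKM in si-ctrl and 25.6 and 26.3 after si-PLANE.2, and PLAUR-202 (ENST00000339082) at 5.03 and 4.79 and 8.51 and 8.74 (1.12 ± 0.28, adjusted p = 0.0548). PLAUR-211, a retained intron, held 9.11 and 11.9 FPKM in si-ctrl and 3.53 and 1.28 after si-PLANE.2 (-1.75 ± 0.69, adjusted p = 0.134).

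PLAT, the tissue-type plasminogen activator, was near the limit of detection, with 20.2 to 29.3 counts in si-ctrl, 11 and 11.05 after si-PLANE.1, and 44.2 and 56.8 after si-PLANE.2. Its FPKM was 1.01 and 0.56, 0.40 and 0.65, and 1.04 and 1.42 in these groups. The log2 fold change was -0.87 ± 0.48 (adjusted p = 0.571) after si-PLANE.1 and 0.74 ± 0.37 (adjusted p = 0.116) after si-PLANE.2. Without si-ctrl replicate 1 the latter was 1.05 (adjusted p = 0.04). Its isoforms were scattered at the level of a few reads and are not described.

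TIMP1 (ENSG00000102265, chrX:47441807-47446188, plus strand), an inhibitor of most matrix metalloproteinases, was at 172 and 144 FPKM with si-ctrl, 192 and 148 after si-PLANE.1, and 184 and 186 after si-PLANE.2, so the FPKM range of si-PLANE.1 overlapped both others, and that of si-PLANE.2 lay above si-ctrl. TMM-scaled CPM values were 75.6 and 68.5, 78.7 and 63.6, and 141 and 140. TIMP1 rose after si-PLANE.2 by 0.94 ± 0.10 on the log2 scale on counts (adjusted p = 0.00013), but with limma on log2(FPKM + 1) the value was 0.23 (adjusted p = 0.145) and on log2(TPM + 1) 0.07 (adjusted p = 0.718). The counts and FPKM part at the isoforms, as for TFPI2. After si-PLANE.1 it gave -0.02 ± 0.14 (adjusted p = 0.977).

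TIMP1-201 (ENST00000218388), the transcript with the full coding sequence of 621 bases, was at 41.3 and 46.9 FPKM with si-ctrl, 46.7 and 38.0 after si-PLANE.1, and 182 and 184 after si-PLANE.2. TIMP1-202 (ENST00000377017), with 429 coding bases, was at 130 and 96.5 FPKM with si-ctrl, 144 and 109 after si-PLANE.1, and 1.46 and 1.30 after si-PLANE.2. TIMP1-201 was 24.0% to 32.5% of the TIMP1 FPKM in every si-ctrl or si-PLANE.1 library and 99.0% in both libraries of si-PLANE.2. TIMP1-201 rose after si-PLANE.2 by 2.37 ± 0.13 (adjusted p = 0.00629) and TIMP1-202 fell by 6.01 ± 0.30 (adjusted p = 0.00576), against 25.6% of the 56791 transcripts tested. Of the main isoforms of the 8 genes, 7 of 17 tested were called after si-PLANE.2, but most calls were lost without si-PLANE.2 replicate 3 or replicate 4. Among the called isoforms, TFPI-203 reached the 0.5 FPKM minimum only through the si-PLANE.2 libraries and TIMP3-201 only through si-ctrl. After si-PLANE.1 TIMP1-201 gave -0.15 ± 0.19 and TIMP1-202 gave 0.07 ± 0.22, both with an adjusted p of 0.999. There, edgeR called 0 of 57625 transcripts (0%), with 2552 at an unadjusted p under 0.05, and DESeq2 called 397. In simulated transcripts for this comparison DESeq2 made 235 false calls with 2-fold changes and 289 with 4-fold changes, so its calls can be false. A missing call in the edgeR transcript test says nothing about whether an isoform moved.

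TIMP1-202 lacks exon 2, which carries the start codon of TIMP1-201, and its annotated start lies in exon 3, in the same frame. The coding part of exon 2 and the whole of exon 3 are printed because they hold the 2 start codons; TIMP1-202 also starts 14 bases later in exon 1. Capitals mark the start codon used by TIMP1-201 and by TIMP1-202. Both are GRCh37 plus strand, chrX:47442815-47442935 and chrX:47444335-47444414.
TIMP1 exon 2, coding part: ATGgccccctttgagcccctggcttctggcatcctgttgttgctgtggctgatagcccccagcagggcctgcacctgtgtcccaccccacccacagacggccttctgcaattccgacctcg
TIMP1 exon 3: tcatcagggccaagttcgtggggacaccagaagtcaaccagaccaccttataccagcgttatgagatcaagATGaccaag

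**Figure D3:**
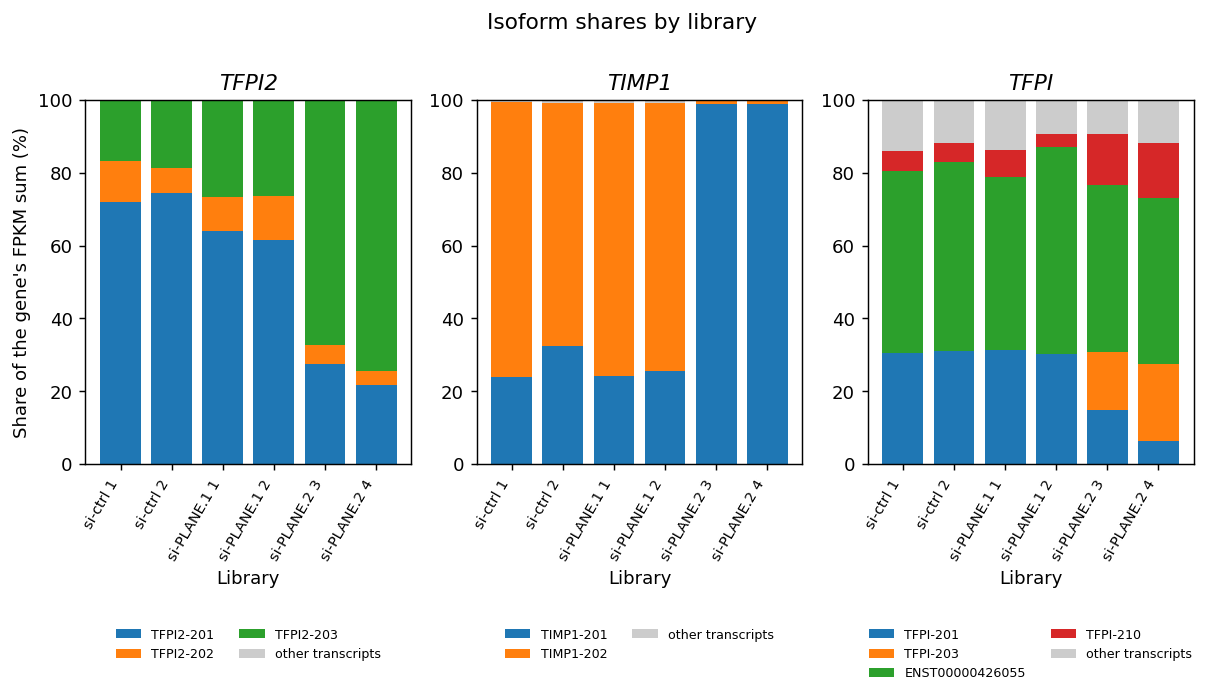
Share of each gene's summed FPKM (percent, stacked bars, 1 bar per library) held by the main isoforms of TFPI2, TIMP1 and TFPI, with other transcripts in grey. The 4 libraries of si-ctrl and si-PLANE.1 are alike in TIMP1, with TIMP1-202 at 66.8% to 75.4%, and it is 0.79% and 0.70% after si-PLANE.2.

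TIMP2 (ENSG00000035862, chr17:76849059-76921469, minus strand), which also takes part in the activation of pro-MMP2, was at 42.8 and 36.9 FPKM with si-ctrl, 49.6 and 33.4 after si-PLANE.1, and 25.7 and 25.3 after si-PLANE.2. The si-PLANE.2 libraries were below all others, and TIMP2 fell by 0.46 ± 0.10 (adjusted p = 0.00547), a call that was lost without si-PLANE.2 replicate 3 (-0.48, adjusted p = 0.0526) or replicate 4 (-0.44, adjusted p = 0.068). After si-PLANE.1 it gave -0.04 ± 0.18 (adjusted p = 0.958). The 2 main isoforms, TIMP2-201 and TIMP2-203, share 4 of 5 exons, differ in the first and have 660 and 429 coding bases. They gave -0.52 ± 0.20 (adjusted p = 0.133) and -0.06 ± 0.21 (adjusted p = 0.859) after si-PLANE.2. Another coding transcript, ENST00000586057, held 258 estimated counts in si-ctrl replicate 2 and 0 in every other library. TIMP2-203 had 1059 and 752 counts in si-ctrl. It gave -0.30 without si-ctrl replicate 2 and 0.22 without si-ctrl replicate 1. Its value therefore does not say whether TIMP2-203 took part in the fall.

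TIMP3 (ENSG00000100234, chr22:33197691-33259028, plus strand), an inhibitor that stays bound to the matrix, had the widest range on a low level: 0.94 and 0.87 FPKM with si-ctrl, 2.15 and 1.48 after si-PLANE.1, and 0.09 and 0.10 after si-PLANE.2. The counts were 56 and 54, 104 and 68, and 8 and 8. The groups did not overlap in either comparison. After si-PLANE.2 TIMP3 fell by 3.07 ± 0.38 (adjusted p = 0.000294), an 8.38-fold change, from counts of 8 per library. It reached the 0.5 FPKM minimum of this comparison only through the si-ctrl libraries, where it was higher. TIMP3 gave 0.91 ± 0.27 (adjusted p = 0.37) after si-PLANE.1.

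The differences between the siRNAs themselves were tested in 1 fit of all 6 libraries, against 64.4% of 14440 genes called. Of the 8 genes other than TFPI2, 6 differed between these groups, a share near that over all genes. PLAU was higher after si-PLANE.2 by 2.15 ± 0.11 (adjusted p = 2.44e-06), PLAT by 1.63 ± 0.41 (adjusted p = 0.00733) and TIMP1 by 0.97 ± 0.12 (adjusted p = 0.000175), although TIMP1 gave -0.10 with limma on log2(TPM + 1) (adjusted p = 0.653). TFPI was lower (-1.60 ± 0.17, adjusted p = 6e-05), as were TIMP3 (-3.97 ± 0.34, adjusted p = 1.99e-05) and TIMP2 (-0.42 ± 0.16, adjusted p = 0.0452). TIMP2 lost its call when any 1 of 4 libraries was left out, with -0.14 (adjusted p = 0.353) without si-PLANE.1 replicate 1, and PLAT without si-PLANE.2 replicate 4 (1.33, adjusted p = 0.0598). F3 gave -0.53 ± 0.27 (adjusted p = 0.117) and PLAUR -0.18 ± 0.11 (adjusted p = 0.168). Between F3 and PLAUR, 1 call was gained with limma on log2(TPM + 1).

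Of the genes that overlap members in the annotation, 5 of 12 were in the tables. GNGT1 (over TFPI2), C10orf55 (PLAU), SYN1 (TIMP1), SYN3 (TIMP3) and CEP295NL (TIMP2) were at 0 to 0.93 FPKM in every library. Whether counting used strand is not stated in the sources used here, so reads of antisense partners cannot be told apart.

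The wider lists, 111 entries of coagulation, plasminogen activation, metalloproteinases, ADAM proteases and Kunitz or surface serine proteases, were described by counts. After si-PLANE.1, 0 of 69 tested genes were called, with 9 at an unadjusted p under 0.05 and 2 called by DESeq2. Over all 14535 genes tested, 1517 had an unadjusted p under 0.05 and 125 were called by DESeq2. The median log2 fold change of the lists was 0.01, against 0.002 over all genes. The 3 genes with the smallest p were F2RL2, a thrombin-receptor family member (-1.05 ± 0.23, adjusted p = 0.278), THBD, thrombomodulin (1.09 ± 0.29, adjusted p = 0.341), and ENO1, a glycolytic enzyme that also binds plasminogen (-0.60 ± 0.17, adjusted p = 0.359). DESeq2 called F2RL2 (adjusted p = 0.0276) and ENO1 (adjusted p = 0.00476). After si-PLANE.2, 44 of 67 (65.7%) were called, 30 higher and 14 lower, with a median of 0.27, against -0.027 over all genes. The share called is near the 64.1% over all genes, of which 31.8% were called higher and 32.3% lower, and that split of all calls moved on FPKM or TPM as given above.

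The genes called highest were PROC, the protein C zymogen (2.66 ± 0.34, adjusted p = 0.000374), F12, factor XII (2.50 ± 0.15, adjusted p = 1.55e-05), CPB2, which reached the 0.5 FPKM minimum only through the si-PLANE.2 libraries (2.45 ± 0.50, adjusted p = 0.00381), AMBP (2.32 ± 0.29, adjusted p = 0.000314), COL7A1 (2.01 ± 0.11, adjusted p = 1.09e-05) and MMP7, matrilysin (1.94 ± 0.16, adjusted p = 4.26e-05). F12 measured 4.10 and 4.63 FPKM in si-ctrl and 22.3 and 21.4 after si-PLANE.2, and MMP7 at 44.8 and 31.0 and 128 and 124. The lowest were LRP1, an endocytic receptor that clears protease-inhibitor complexes (-1.91 ± 0.15, adjusted p = 3.67e-05), MMP17 (-1.66 ± 0.21, adjusted p = 0.000322), SERPINA1 (-1.63 ± 0.13, adjusted p = 3.96e-05), SERPINI1 (-1.61 ± 0.25, adjusted p = 0.000926), SERPINB9 (-1.34 ± 0.11, adjusted p = 5.05e-05) and PAPLN (-1.11 ± 0.41, adjusted p = 0.0458). PAPLN lost its call with DESeq2 (adjusted p = 0.0601), without si-ctrl replicate 2 (-0.68, adjusted p = 0.134) and without si-PLANE.2 replicate 3 (-0.70, adjusted p = 0.25).

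**Figure D4:**
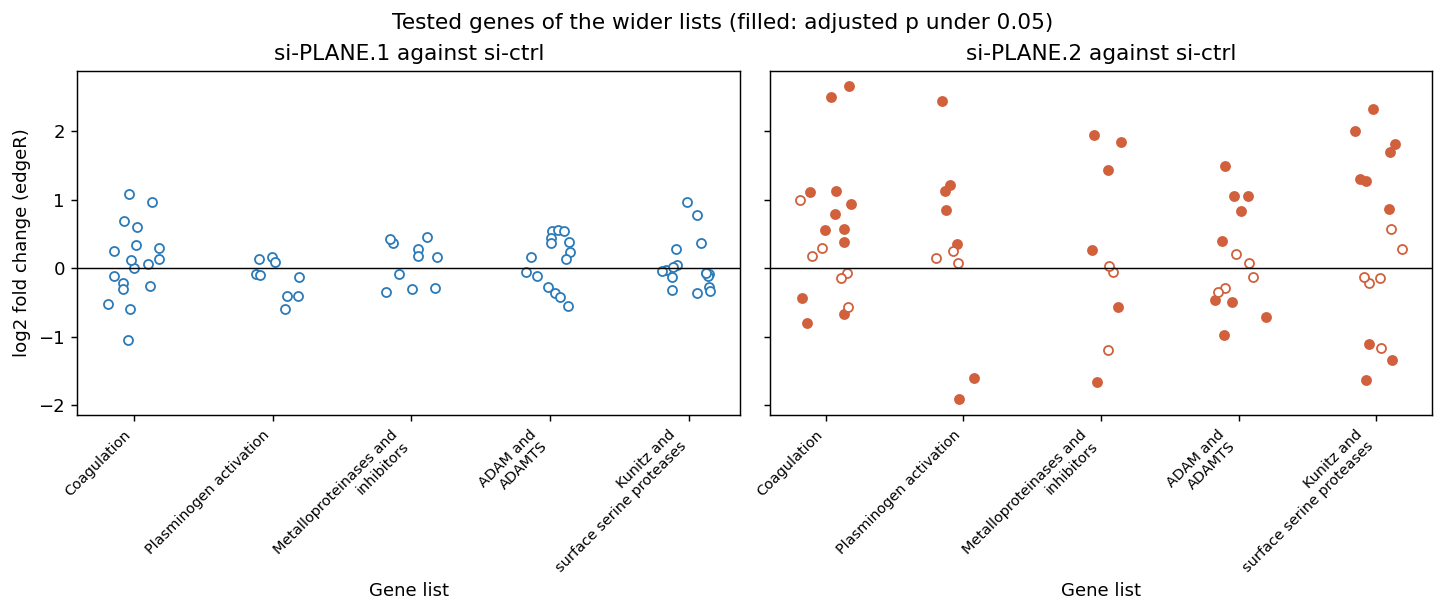
Log2 fold change (edgeR) of each tested gene of the 5 wider lists against si-ctrl, 1 panel per siRNA, filled where the adjusted p was under 0.05. No point is filled after si-PLANE.1, and filled points lie on both sides of 0 in each list after si-PLANE.2.

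By list, 9 of 18 tested coagulation genes were higher and 3 lower after si-PLANE.2, 5 and 2 of 10 plasminogen genes, 4 and 2 of 9 metalloproteinase genes, 5 and 4 of 14 ADAM genes, and 7 and 3 of 16 Kunitz or surface protease genes. From 62.5% to 70.0% of a list was called, near the 64.1% over all genes, so these counts are no result about the lists. The medians were 0.47, 0.30, 0.03, -0.03 and 0.43.

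Across the 6 libraries, the genes whose log2 CPM values correlated best with those of TFPI2, among 10183 genes of at least 5 FPKM, were NAT10 (r = 0.995), DHX29 and DTL (0.991 each), MORF4L1 (0.989) and TXN (0.988). The r takes no account of the size of a change, and on FPKM these genes differed. NAT10 was at 26.3 and 24.1 with si-ctrl, 24.8 and 22.7 after si-PLANE.1, and 21.5 and 20.7 after si-PLANE.2. In the same order, DHX29 was at 15.7 and 12.8, 8.14 and 7.14, and 12.55 and 12.92. MORF4L1 was at 946 and 854, 502 and 528, and 529 and 511. The correlation is a description over 6 libraries that fall into 3 groups, with no test.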

How the data were processed

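RNA was measured in 6 A549 libraries, 2 per group, grouped by the sample labels. The authors deposited 1 estimated count (expected count) for each Ensembl transcript and library, not normalized. The authors also deposited FPKM values, scaled by them for transcript length and depth, and the transcript lengths in bases. The submitters' processing notes name Trimmomatic 0.30, HISAT2 2.0.1, HTSeq 0.6.1 and DESeq with hg19, without roles, and the tool that estimated the counts is not given in the sources used here. Transcripts without a gene identifier (16723 of 180253, 3.03% to 3.62% of counts) were left out of gene sums. The members and lists were chosen with earlier results of these data known.

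Counts were rounded after summing per gene. Genes averaging 0.5 FPKM or more in the 4 compared libraries were tested with edgeR 4.0.16 (TMM, glmQLFit, glmQLFTest, R 4.3.3), and Benjamini-Hochberg adjusted p under 0.05 was called; transcripts were treated likewise. The scripts were checked on simulated data for si-PLANE.1 against si-ctrl, with 200 genes or transcripts altered, all above a minimum count. At gene level edgeR called 51.5% of these when the simulated size was 2-fold, and 98.5% when it was 4-fold. At transcript level edgeR called 0% at either size, while DESeq2 called 9% at 2-fold with 235 false calls and 63% at 4-fold with 289. Alternatives were DESeq2 1.42.0, limma 3.58.1 on log2 values with pseudocounts of 1 or 0.1, other scalings and filters, all 6 libraries in 1 fit, a replicate block and each library left out. An exact permutation test of 2 against 2 cannot go below p = 0.333 (two-sided), so none was used for single values. Isoforms shown held at least 10% of their gene's FPKM in a group mean. From the wider lists the 6 called genes with the largest change in each direction were named and, where fewer than 3 were called, the 3 with the smallest p. Genome and annotation were GRCh37 and GENCODE 44 mapped to it.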

Additional observations from a re-analysis of the deposited data

Results flagged for a closer look

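The effects of the 2 siRNAs on a gene differed by the test of the difference itself in 6 of the 8 genes other than TFPI2 (log2, si-PLANE.2 minus si-PLANE.1, edgeR), near the 64.4% of all genes called in this comparison. The values were -1.60 for TFPI, 2.15 for PLAU, 1.63 for PLAT, 0.97 for TIMP1, -0.42 for TIMP2 and -3.97 for TIMP3. Library type, any difference of run or culture, and siRNA cannot be told apart in these differences. TIMP1 turned to -0.10 with limma on log2(TPM + 1), and on that scale 1 call was gained between F3 and PLAUR. TIMP2 lost its call when any 1 of 4 libraries was left out (-0.14 without si-PLANE.1 replicate 1), and PLAT lost it without si-PLANE.2 replicate 4 (1.33) and on log2(TPM + 1) (0.51).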

How the results depend on the processing

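With 2 libraries per group, precision is low, and PLAT, TIMP3 and F3 rest on few counts. After si-PLANE.2, 4 to 6 of the 8 genes were called under the alternatives run for it (no replicate block, as no numbers are shared) and with any library left out, although TIMP1 lost its call and PLAUR gained one on FPKM or TPM values. The wider list had 44 calls there and 28 to 49 with a library left out (28 without si-PLANE.2 replicate 3), and the main isoforms 7 and 0 to 7 (0 without si-PLANE.2 replicate 3, 1 without replicate 4). The number of calls over all genes also fell with either si-PLANE.2 library left out and rose with either si-ctrl library left out. The cause was not tested for these or the values below.

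After si-PLANE.1, the wider list had 0 calls with edgeR and 2 with DESeq2. Over all genes, 5 were called, against 125 with DESeq2, 1 with limma on log2(FPKM + 1) or log2(TPM + 1), 3 with a pseudocount of 0.1, 17 with all 6 libraries in 1 fit, 0 over protein-coding transcripts and 1 to 4 with a library left out. The labels number si-ctrl and si-PLANE.1 libraries alike (1 and 2) and do not tie a number to a shared day or batch. Deviations of same-numbered libraries had a correlation of 0.328 over 14535 genes, and genes are no independent replicates. With a replicate block, 1 of the 8 genes was called (TIMP3, 0.89, adjusted p = 0.0139, edgeR), 12 of the wider list, 0 main isoforms and 1225 of all genes. That fit leaves 1 residual degree of freedom in 4 libraries, so its p-values lean on a spread shared over genes.

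Values that changed sign follow. PLAUR after si-PLANE.2 gave -0.54 on log2(TPM + 1), -0.38 on log2(FPKM + 1), -0.39 with a pseudocount of 0.1, -0.03 with a minimum of 2 FPKM, 0.00 over protein-coding transcripts and -0.08 to 0.15 with a library left out. After si-PLANE.1, TIMP1 gave 0.01 with upper-quartile scaling, 0.17 on log2(TPM + 1), 0.10 with either FPKM pseudocount, 0.01 over protein-coding transcripts and -0.17 to 0.12 with a library left out. TIMP2 gave 0.11 on log2(TPM + 1), 0.03 with either FPKM pseudocount and -0.31 to 0.19 with a library left out. With a library left out, TFPI ran from -0.42 to 0.05 and F3 from -0.06 to 0.61. After si-PLANE.2, F3 gave 0.02 with either FPKM pseudocount. TFPI-210 gave -0.21 on log2(FPKM + 1), -0.08 with a minimum of 2 FPKM and -0.02 to 0.18 with a library left out, PLAUR-203 -0.24, -0.14 and -0.17 to 0.24, and TIMP2-203 -0.30 to 0.22 with a library left out. The difference between the siRNAs in TIMP1, called at 0.97, was -0.10 on log2(TPM + 1).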
